A study of Sus scrofa with 34 samples.

Results

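Genes of long-chain polyunsaturated fatty acid synthesis and use were followed in pig liver and ileum: the desaturases FADS1 and FADS2, the elongases ELOVL2 and ELOVL5, and the acyltransferase LPCAT3. They were chosen by name for their place in this pathway, with earlier results of these data known, and are 5 of the 25880 genes in the count tables, of which 14857 had a symbol. All 5 were found under 1 gene each and passed the filter on low counts in every comparison.

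The essential dietary fatty acids linoleic and alpha-linolenic acid are turned into arachidonic, eicosapentaenoic and docosahexaenoic acid by alternating desaturation and elongation in the endoplasmic reticulum, and liver is a main site of this synthesis. FADS2 catalyzes the first desaturation, ELOVL5 the next elongation and FADS1 the second desaturation, while ELOVL2 elongates the longest substrates on the way to docosahexaenoic acid. LPCAT3 attaches polyunsaturated acyl chains to lysophospholipids, which places them in membranes and lipoproteins. Transcription factors of the SREBP, LXR and PPAR families are known regulators of these genes.

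The data were RNA-Seq counts from weaned crossbred piglets, with Landrace × Large White on the sow side and Pietrain on the boar side, sampled on day 28 of feeding. The groups were a basal diet (control), the basal diet with a phytogenic feed additive (PFA, a mix of plant extracts with essential oils such as oregano and caraway oil and nature-identical compounds), a diet containing heated, oxidized rapeseed oil (OO), and that oil diet with the additive (OO + PFA). Liver was measured in 6 pigs of each diet, and ileum in 5 control and 5 PFA pigs that also gave a liver library. Pigs are named by C, P, OO or OP and their number. The series text gives the day as the age of the pigs, whereas the study's methods give it as the time on the diets. Each diet was fed in 1 pen, and effects of the pen cannot be told apart from those of the diet. The oxidized oil was added at the expense of the other ingredients, so its oxidation, the amount of fat and the dilution of the rest cannot be told apart either.

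Between 18738055 and 42446834 read pairs per liver library and between 18772230 and 24338165 per ileum library were counted on genes. The liver library of OP-77, which the study left out for its read quality, stood apart, with its 10 top genes holding 48.3% of its pairs (23.8% to 34.8% in the remaining livers), and the diets were compared over the other 23 libraries. The tissue labels were checked on marker genes. CPM are read pairs per 1e6 of the scaled library. For marker sums, and for markers given as below 0.1 CPM, they are per 1e6 pairs counted on genes, without scaling. Summed markers of hepatocytes reached 69750 to 161300 CPM in liver and 1061 to 3874 CPM in ileum. ALB, TTR and SERPINA1 were each below 0.1 CPM on average in the control ileum, and only TTR and SERPINA1 were in the PFA ileum. APOA1 and FGB, also on the hepatocyte list, were not, and APOA1 had a mean of 2459 CPM of the scaled library in the control ileum. SERPINA1 was also low in liver, as given below. The enterocyte genes SI, SLC10A2 and FABP2 were each below 0.1 CPM in liver, whereas VIL1 and CDX2 were not. The summed enterocyte markers were at 2.43 to 31.65 CPM in liver and 7533 to 13000 CPM in ileum. In bulk tissue, fewer cells of a type and less RNA per cell cannot be told apart.

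On the pig genome Sscrofa11.1, RefSeq placed FADS2 (ENSSSCG00000013072) on the minus strand of chromosome 2 from 9633941 to 9666666, and FADS1 (ENSSSCG00000024015) on the plus strand from 9735425 to 9747405. The starts of both models faced each other across 68758 bases. The FADS1 model is incomplete at its start, so this is a distance between models and not between the starts of the genes. ELOVL2 (ENSSSCG00000001045) lay on the minus strand of chromosome 7 from 7651707 to 7732353, and ELOVL5 (ENSSSCG00000024149) on the same strand and chromosome from 46860768 to 46932945. LPCAT3 (ENSSSCG00000027205) lay on the plus strand of chromosome 5 from 63707674 to 63746369.

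The 250 bases before the RefSeq start are shown for both elongases, since ELOVL2 was the member whose RNA changed with diet and ELOVL5 did not pass the test in any diet comparison. The ELOVL2 stretch is chr7:7732354-7732603 and the ELOVL5 stretch chr7:46932946-46933195, both read from the minus strand of Sscrofa11.1 and written 5′ to 3′. Capitals mark matches, on either strand, to the GC box GGGCGG, the CCAAT box CCAAT and the E-box CACGTG.
ELOVL2: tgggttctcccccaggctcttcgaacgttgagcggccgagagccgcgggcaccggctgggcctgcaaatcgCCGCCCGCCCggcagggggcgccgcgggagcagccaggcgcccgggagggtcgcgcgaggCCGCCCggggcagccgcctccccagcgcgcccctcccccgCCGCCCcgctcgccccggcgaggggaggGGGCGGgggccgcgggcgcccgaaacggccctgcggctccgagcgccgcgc
ELOVL5: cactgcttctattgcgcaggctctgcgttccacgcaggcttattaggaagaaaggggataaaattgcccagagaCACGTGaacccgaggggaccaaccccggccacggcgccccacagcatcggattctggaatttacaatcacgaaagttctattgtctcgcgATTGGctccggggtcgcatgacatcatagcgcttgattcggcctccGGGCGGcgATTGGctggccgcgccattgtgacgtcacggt
The ELOVL2 stretch held 5 GC boxes, of which the first 2 overlap in CCGCCCGCCC, and no CCAAT or E-box. The ELOVL5 stretch held 1 GC box, 2 CCAAT boxes and 1 E-box. GC made up 83.2% of the ELOVL2 stretch, more than in 97.3% of the 10913 promoters read in the same way for genes expressed in liver, and 57.6% of the ELOVL5 stretch. In those promoters a GC box was found in 56.8%, a CCAAT box in 32.5% and an E-box in 7.54%. The letters TCACNCCAC of a sterol element, found in 0.88% of promoters, and AGGTCA, the hexamer bound by nuclear receptors, found in 10.9%, were not in the windows of ELOVL2, ELOVL5, FADS2 or LPCAT3. The FADS1 model is incomplete at its start, so no promoter was read for it.

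Whether the members differed between diets in liver was asked with edgeR's quasi-likelihood test over 13831 genes, with a Benjamini-Hochberg adjusted p of at most 0.05 as the threshold. ELOVL2 was the only member that differed across the 4 diets (adjusted p = 0.000591, edgeR), where 3.66% of all genes passed (2.15% without C-85 to 10.5% without OO-97, with ELOVL2 called each time). It rose with oxidized oil, whether or not PFA was fed, and the 2 desaturases, ELOVL5 and LPCAT3 did not pass the test in any pairwise diet comparison.

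**Figure D1:**
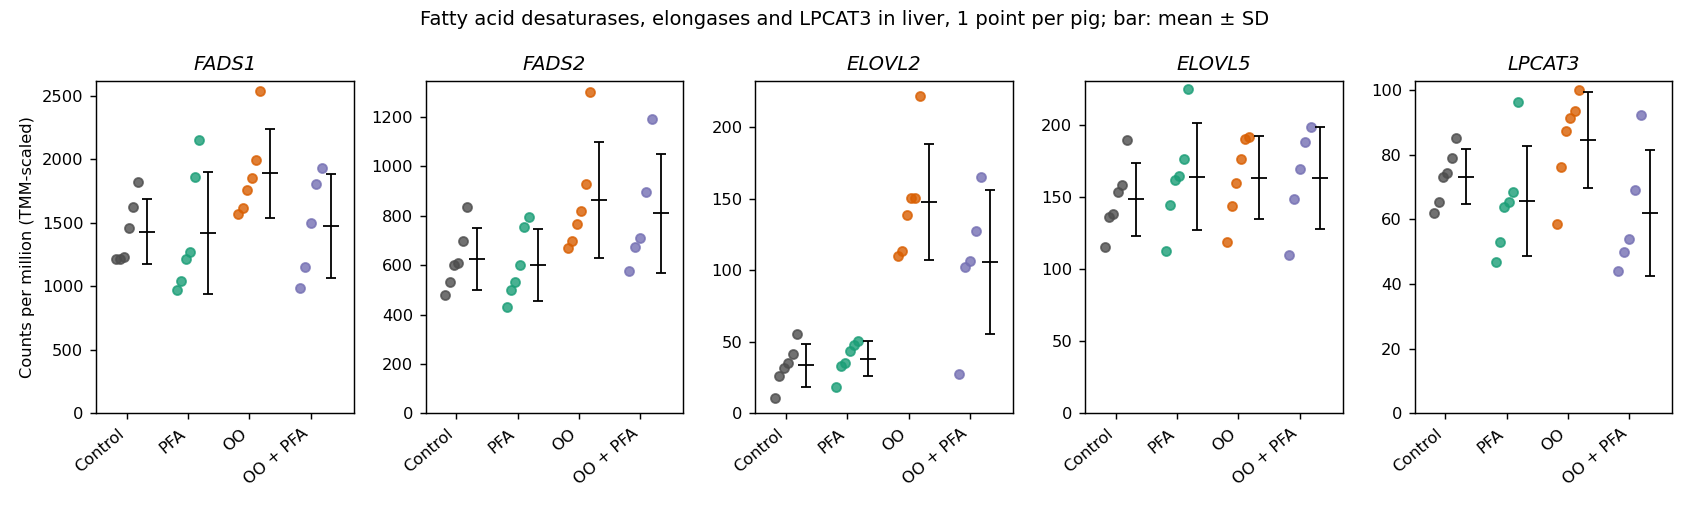
TMM-scaled CPM of the 5 members in the liver of pigs fed control, PFA, OO or OO + PFA, 1 point per pig, with the mean and SD of each diet beside the points. All 6 OO livers, at 110.3 to 222 CPM of ELOVL2, sat above the control and PFA livers, and 1 OO + PFA liver, at 27.4 CPM, sat among them. The share of all genes separated in this way was not counted.

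FADS2, which starts the pathway, was at a lowest level of 480.0 CPM, a median of 605 and a highest of 834 in the control livers. The same values were 431, 567 and 797 CPM with PFA, and 669.9, 792 and 1302 CPM with OO. The 5 OO + PFA livers were at 577, 676, 712, 894 and 1189.9 CPM. The groups overlapped, although all 6 OO livers lay above the control mean of 626 ± 126.4 CPM (SD, n = 6). For OO against control FADS2 differed by a log2 value of 0.46 (standard error 0.20, 95% interval 0.06 to 0.87), with an unadjusted p of 0.0279 and an adjusted p of 0.176 (edgeR). The value for OO + PFA against control was 0.37 on the log2 scale (95% interval -0.06 to 0.80), with an adjusted p of 0.2995 (edgeR).

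FADS1, the second desaturase, had a lowest level of 1216 CPM, a median of 1347 and a highest of 1823 in the control livers. With PFA these were 969, 1243 and 2155 CPM, and with OO 1572, 1806 and 2536 CPM. The OO + PFA livers were at 986, 1148, 1502, 1805 and 1934 CPM. The control and PFA livers overlapped those of both oil diets, and the OO mean of 1888 ± 353 CPM (SD, n = 6) compared with 1429 ± 255 in the control group. On the log2 scale FADS1 differed from control by 0.40 with OO (95% interval -0.02 to 0.82, adjusted p = 0.252, edgeR) and by 0.05 with OO + PFA (95% interval -0.39 to 0.48, adjusted p = 0.933, edgeR).

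ELOVL5, the elongase that acts between the 2 desaturases, had the largest p of the members across the 4 diets (adjusted p = 0.862, edgeR). Its lowest, median and highest levels were 116, 146 and 189.6 CPM in the control livers, and 119, 168 and 192 CPM with OO. With PFA they were 113, 163 and 225 CPM, and the OO + PFA livers were at 109.6, 149, 169, 188 and 199 CPM. All 4 ranges overlapped. The log2 fold change was 0.14 for OO against control (95% interval -0.20 to 0.48, adjusted p = 0.661, edgeR), so a rise of the size seen in ELOVL2 lay outside the interval.

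ELOVL2, the elongase of the longest polyunsaturated chains, was at 10.9 CPM in the lowest, 33.5 in the median and 55.8 in the highest control liver. The PFA livers were close, at 18.4, 39.8 and 51.0 CPM. The 6 OO livers were at 110.3, 113, 139, 150.5, 150.9 and 222 CPM. The lowest OO liver thus exceeded the highest control or PFA liver, and the groups did not overlap. The share of all genes that separated these livers in the same way was not counted. The ELOVL2 means were 33.6 ± 15.0 CPM in the control, 38.3 ± 12.01 in the PFA and 148 ± 40.5 in the OO group (SD, n = 6 each). ELOVL2 rose by 2.13 on the log2 scale (standard error 0.35, 95% interval 1.3998 to 2.86) for OO against control, a 4.38-fold difference with an adjusted p of 0.00115 (edgeR). ELOVL2 was thus 1 of the 5 members that passed in this comparison, in which 2.71% of all genes passed. That share ranged from 1.21% without OO-130 to 9.6% without OO-97, and ELOVL2 was called in all 12 fits that left out 1 library.

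The OO + PFA livers were at 27.4, 103, 107, 127 and 165 CPM of ELOVL2. Of these, 4 lay above all control and PFA livers, and OP-79, at 27.4 CPM, lay inside the control range. How often other genes had as many OO + PFA livers above those groups was not counted. ELOVL2 rose by 1.65 on the log2 scale against control (standard error 0.36, 3.14-fold, adjusted p = 0.0172, edgeR), the only member called where 5.08% of all genes passed (1.38% without C-71 to 5.1% without C-80). Against PFA alone it rose by 1.47 (standard error 0.36, 2.76-fold, adjusted p = 0.0379, edgeR), again the only member, where 1.58% of all genes passed (0.741% without OP-137 to 2.98% without P-138). The OO and OO + PFA comparisons with the control group share its 6 livers. The call against PFA was lost when P-67, P-95, P-107, P-134, OP-98, OP-105, OP-126 or OP-137 was left out, with adjusted p-values between 0.0514 and 0.0891, and was kept without P-75, P-138 or OP-79 (edgeR). Without OP-79 the rise was 1.90 against control (adjusted p = 0.002, edgeR) and 1.71 against PFA (adjusted p = 0.00483, edgeR).

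OP-79 was also the lowest OO + PFA liver for FADS1 (986 CPM) and FADS2 (577 CPM), but the highest for LPCAT3 (92.4 CPM). Its CPT1A, the gatekeeper of fatty acid entry into mitochondria, was at 159.7 CPM, above all control livers (57.1 to 88.4 CPM), and its SLC27A2, an acyl-CoA synthetase, was at 174 CPM against 57.1 to 107.8 CPM. Of the 14 genes of the lists described below that rose with OO against control, 12 were above all control livers in OP-79, some narrowly, such as PLIN2 at 16.4 CPM against a highest control of 16.2. The other 2, PEX11A at 19.6 CPM and FGF21 at 15.2 CPM, were inside the control range, as ELOVL2 was. These 14 genes were picked by a test against the same control livers. The share of all genes above those livers in OP-79 was not counted.

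Whether PFA changed the members was asked with and without the oil. For PFA against control in liver, the log2 fold changes of the 5 members lay between -0.16 (LPCAT3) and 0.19 (ELOVL2), none passed the test and none had an unadjusted p under 0.05. Of all genes 0% passed there with edgeR, 1522 had an unadjusted p under 0.05, and DESeq2 called 18 genes but no member. For OO + PFA against OO, edgeR again called 0% of all genes, with 1176 at an unadjusted p under 0.05, and DESeq2 called 31 genes but no member. ELOVL2 had a log2 fold change of -0.48 (95% interval -1.22 to 0.26, adjusted p = 0.725, edgeR), an interval that holds both no difference and a level less than the OO level by more than 1 on the log2 scale. Without OP-79 this value was -0.23. FADS1 was at -0.36 (adjusted p = 0.645, edgeR). LPCAT3 had the smallest unadjusted p of the members, 0.0242, with a log2 value of -0.45 (95% interval -0.84 to -0.06) and an adjusted p of 0.522 (edgeR).

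The test of the difference itself, the interaction of oil and PFA, gave ELOVL2 a log2 value of -0.67 (95% interval -1.69 to 0.36, adjusted p = 0.558, edgeR). The other members lay between -0.35 and -0.04, and none passed. With edgeR 0% of all genes passed for the interaction, 1881 had an unadjusted p under 0.05, and DESeq2 called 150 genes but no member. That the oil's effect on a member differed with PFA was thus not shown.

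**Figure D2:**
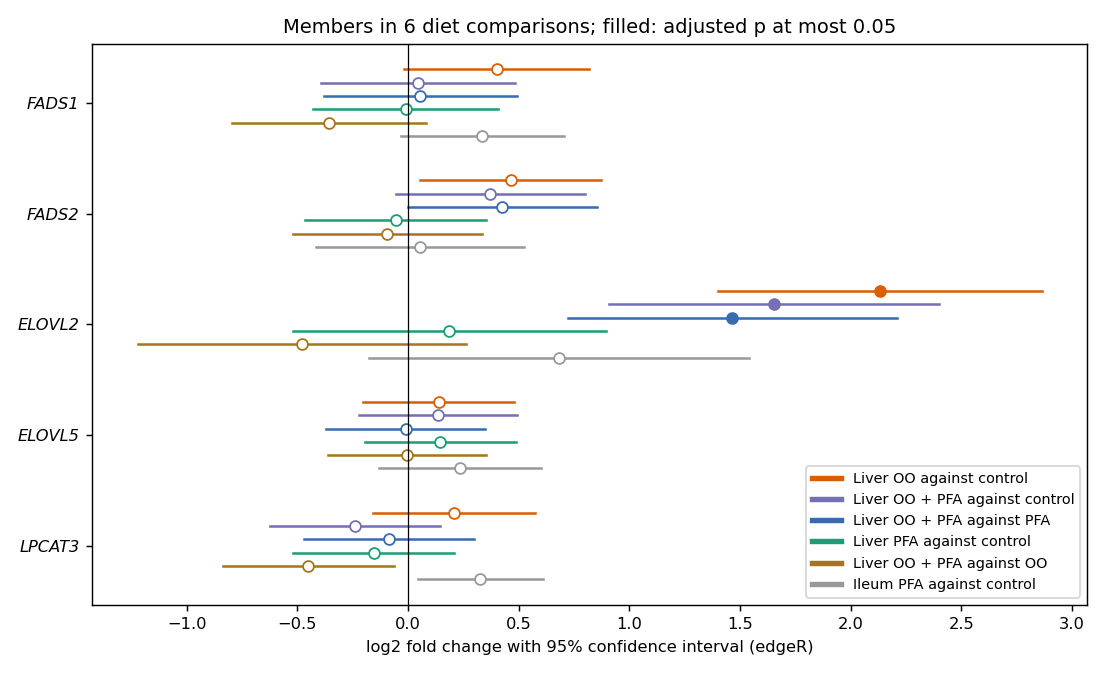
Log2 fold changes of the 5 members in 6 diet comparisons, with 95% confidence intervals from edgeR and filled points where the adjusted p was at most 0.05. The 3 filled points are ELOVL2 at 2.13, 1.65 and 1.47 in the comparisons of an oil diet with a diet without oil, and the intervals of the other members are centred between -0.45 and 0.46.

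LPCAT3, the acyltransferase, had lowest, median and highest levels of 62.0, 73.7 and 85.1 CPM in the control livers, 46.9, 64.7 and 96.2 CPM with PFA, and 58.7, 89.5 and 99.9 CPM with OO. The OO + PFA livers were at 44.1, 49.8, 54.0, 69.2 and 92.4 CPM. The groups overlapped, with 3 of 5 OO + PFA livers below all control livers and 4 of 6 OO livers above them. How often this was so among all genes was not counted. LPCAT3 had a log2 fold change of 0.21 for OO (adjusted p = 0.517, edgeR) and -0.24 for OO + PFA (adjusted p = 0.485, edgeR) against control.

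Levels of different genes were compared per kilobase of the exons in the RefSeq models. FADS1 and FADS2 were left out of that comparison, since the FADS1 model is incomplete and that of FADS2 is short at 1.49 kb. In the control livers ELOVL5 was at 51.3 ± 8.69 CPM per kb, LPCAT3 at 29.0 ± 3.36 and ELOVL2 at 8.01 ± 3.58 (SD, n = 6). With OO the order of the lower genes was no longer clear, with ELOVL2 at 35.2 ± 9.64 and LPCAT3 at 33.5 ± 5.89 CPM per kb, which do not differ beyond their spread, and ELOVL5 at 56.4 ± 9.85. The ratio of ELOVL2 to ELOVL5 per kb was 0.167 ± 0.0851 in the control, 0.168 ± 0.0692 in the PFA, 0.635 ± 0.183 in the OO and 0.453 ± 0.211 in the OO + PFA livers.

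Library titles in liver came in 2 forms, PigLiv and PL, whose meaning is not given, and the rise of ELOVL2 was seen in both. In libraries with a PigLiv title it was at 27.8 ± 12.9 CPM in 4 control and 133 ± 20.7 in 3 OO pigs. With a PL title it was at 45.4 ± 14.8 CPM in 2 control and 162 ± 55.1 in 3 OO pigs (SD). Summed macrophage markers, all 5 of them detected, were taken per library total, without TMM scaling. Their medians were 320.5 CPM (259.6 to 469.3) in the control, 469.6 (181.6 to 669.2) in the PFA, 492 (281.8 to 796.2) in the OO and 669.6 (503 to 967.6) in the OO + PFA livers. The median log2 fold change of the 5 genes against control was 0.226 for PFA, 0.64 for OO and 0.331 for OO + PFA. The order of the sums was thus not that of the gene medians. None of these genes passed the test for OO or OO + PFA against control, and their part in the result was not tested. Among the 5 hepatocyte markers SERPINA1 alone passed for OO against control, where it fell by 1.25 on the log2 scale (adjusted p = 0.015, edgeR). It was at only 1.25 to 3.78 CPM in the control livers. The median of the 5 hepatocyte markers was -0.0995 for OO, and none passed for OO + PFA against control. The adipocyte marker PLIN1, which also coats lipid droplets, rose by 1.79 with OO (adjusted p = 0.00868, edgeR, or 0.0611 with the 2 diets fitted alone). CIDEC, the other adipocyte marker kept by the filter, did not pass, and the median of both was 1.2. ADIPOQ, LEP and LPL were below 0.1 CPM. The slope of log2 CPM on GC content ranged from -0.45 to -0.16 per 10% GC in the control, from -0.72 to -0.18 in the PFA, from -0.62 to 0.17 in the OO and from -0.21 to 0.24 in the OO + PFA livers, of which 4 of 5 lay above all control livers. After a GC correction ELOVL2 remained called for OO and for OO + PFA against control.

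Genes around the members in the pathway were then counted, for OO against control, beside a median log2 fold change of 0.06 over all genes, of which 2.71% passed. The lists were chosen with earlier results known, and ACSL1, SCD and ELOVL6, among others, stand on more than 1 of them. Of the 7 other elongases and desaturases tested, none passed and the median was 0.13, with ELOVL6, which elongates saturated chains, at -0.29 and SCD, the desaturase of saturated chains, at 0.13, both named after their values were seen. None of 5 genes for the other steps of the elongation cycle (median 0.23) and none of 5 cytochrome b5 and reductase genes that supply electrons to desaturases (median 0.22) passed. Among 13 other lysophospholipid acyltransferases AGPAT4 alone rose, by 1.15 (adjusted p = 0.0414, edgeR), at 0.64 to 1.79 CPM in the OO and 0.31 to 0.72 in the control livers, and the median was 0.32. The call of AGPAT4 was lost in 8 of 12 fits that left out 1 library. None of 5 phospholipases (median 0.12) and none of 14 eicosanoid enzymes (median 0.09), which release and use these fatty acids, passed.

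Genes that activate and shorten long acyl chains were among those that rose. Of 7 acyl-CoA synthetases (median 0.14), SLC27A2 rose by 1.83 (adjusted p = 2.14e-06, edgeR), from 57.1 to 107.8 CPM in control to 225.5 to 382 CPM in OO livers, and ACSL1 rose by 1.22 (adjusted p = 9.36e-05, edgeR). ACSL4, which prefers arachidonic acid, was lower for OO + PFA against control, where it fell by 1.46 (adjusted p = 0.034, edgeR), and had a value of -1.25 for OO (adjusted p = 0.0622, edgeR). Its call was lost in 8 of 11 fits that left out 1 library, with values from -1.92 to -1.04 and adjusted p-values up to 0.104 (edgeR). Of 5 genes of peroxisomal chain shortening, the step that ends docosahexaenoic acid synthesis (median 0.58), the transporter ABCD3 rose by 1.66 (adjusted p = 3.17e-05, edgeR) and the thiolase ACAA1 by 0.69 (adjusted p = 0.0101, edgeR).

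**Figure D3:**
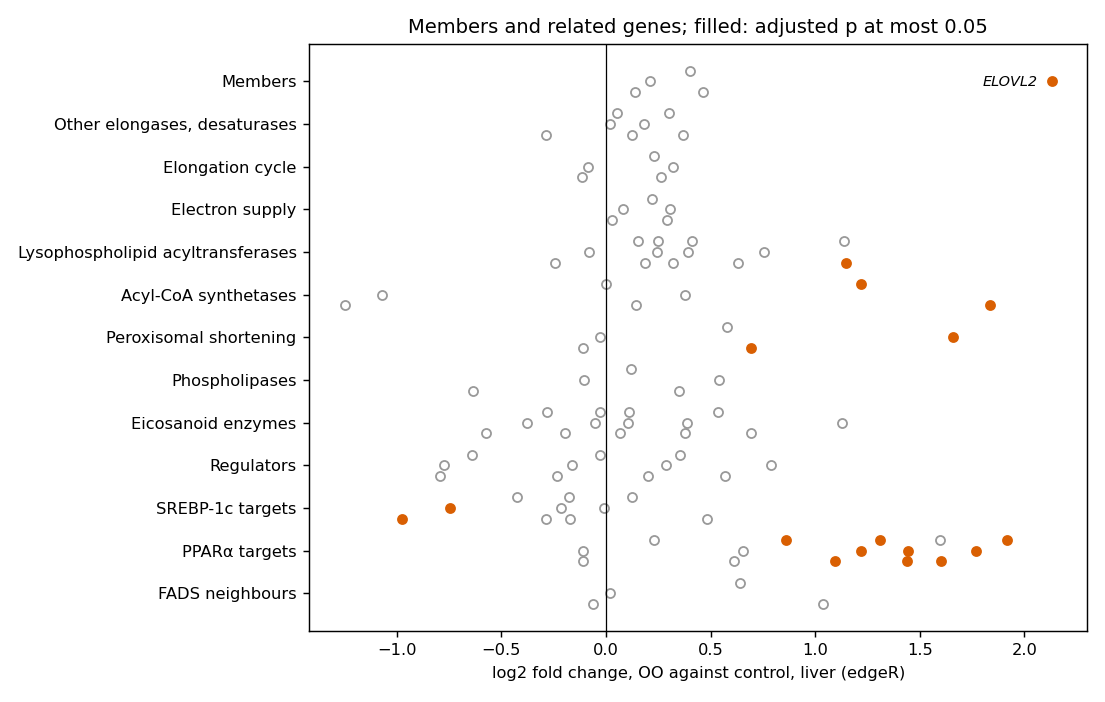
Log2 fold change of OO against control in liver for the members and 12 lists of related genes, 1 point per gene, filled where the adjusted p was at most 0.05 (edgeR). ELOVL2, at 2.13, lies to the right of the other points, 9 of 15 PPARα targets are filled on the right and 2 of 10 SREBP-1c targets are filled on the left. Of all genes 2.71% passed.

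Of 15 known targets of PPARα, the fatty acid sensor that drives fat oxidation, 9 rose with OO and 9 with OO + PFA against control. The medians were 1.22 and 0.81, and the list includes ACSL1. Of all genes 2.71% passed for OO and 5.08% for OO + PFA, and both comparisons share the control livers. The 6 with the smallest p for OO were CPT1A at 1.60, ACADVL at 1.44, PEX11A at 1.31, CPT2 at 1.44, ACSL1 at 1.22 and PLIN2 at 1.92, with adjusted p-values from 4.93e-07 to 0.000219 (edgeR). ANGPTL4 passed across the 4 diets (adjusted p = 0.0367, edgeR). Of 10 targets of SREBP-1c, the driver of fat synthesis, ACACA fell by 0.75 (adjusted p = 0.0438, edgeR) and THRSP by 0.97 (adjusted p = 0.0188, edgeR) with OO, and the median was -0.20. When 1 library was left out, the call of ACACA was lost in 9 of 12 fits and that of THRSP without OO-102 (adjusted p = 0.0516, edgeR).

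None of 11 regulators of the pathway passed for OO or for OO + PFA against control. For OO their values were 0.79 for SREBF1, 0.35 for SREBF2, 0.28 for SCAP, -0.79 for INSIG1, -0.03 for INSIG2, 0.20 for NR1H2, -0.24 for NR1H3, -0.64 for PPARA, 0.57 for RXRA, -0.77 for MLXIPL and -0.16 for HNF4A, with a smallest adjusted p of 0.102 (edgeR). INSIG1 passed across the 4 diets (adjusted p = 0.0478, edgeR), as did the prostaglandin synthase PTGES2 (adjusted p = 0.0482, edgeR). INSIG1 fell for OO against control when the 2 diets were fitted alone (adjusted p = 0.0241, edgeR) or with DESeq2 (adjusted p = 0.0407), and MLXIPL fell after the GC correction (adjusted p = 0.0092, edgeR).

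Several related genes passed for OO + PFA against control and did not for OO, beside a median of -0.01 over all genes, of which 5.08% passed for OO + PFA. LPCAT1 rose by 0.83 (adjusted p = 0.0474, edgeR) and AGPAT2 by 1.18 (adjusted p = 0.0442, edgeR), and of 4 genes next to FADS1 and FADS2, DAGLA rose by 1.33 (adjusted p = 0.0442, edgeR) and RAB3IL1 by 1.28 (adjusted p = 0.0331, edgeR). These 4 calls were lost after the GC correction, which brought the values to 0.36, 0.26, 0.51 and 0.53, and so was that of FGF21 (1.36, adjusted p = 0.0552, edgeR). When 1 library was left out, the call was lost in 11 of 11 fits for AGPAT2 (adjusted p from 0.0542 to 0.137, edgeR), in 9 for LPCAT1, in 10 for DAGLA and in 9 for RAB3IL1. With edgeR no gene passed for OO + PFA against OO, so a difference of these genes between the oil diets was not shown by that test. The OO and OO + PFA livers overlapped in LPCAT1, AGPAT2, DAGLA and RAB3IL1. For PFA against control no gene of these lists passed in liver or ileum (edgeR).

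Pigs on the same diet differed from each other, and it was asked which members varied together, over the 10 pairs, in log2 CPM with the diet means removed. FADS1 and FADS2 rose and fell together over 23 livers, with r = 0.813 by Pearson's method (permutation p = 2e-05, or 0.0002 after adjustment over the pairs). By Spearman's method rho was 0.742 (permutation p = 0.00058, or 0.0058 after adjustment). Without the 2 livers farthest from the median of FADS1, r was 0.778, and it was 0.779 in the 14 PigLiv and 0.932 in the 9 PL libraries. The ratio of FADS1 to FADS2 CPM, which is not corrected for gene length, ranged from 1.61 to 2.77 with a median of 2.22.

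No other pair passed with adjustment over the 10 pairs. ELOVL2 had r = 0.361 with FADS2 (permutation p = 0.127, adjusted p = 0.303, rho = 0.255 with permutation p = 0.263) and -0.044 with ELOVL5 (permutation p = 0.86, rho = -0.031 with permutation p = 0.896). FADS2 and ELOVL5 had r = 0.399 (permutation p = 0.0916, adjusted p = 0.303, rho = 0.378 with permutation p = 0.107), which became 0.593 after the GC correction (adjusted p = 0.0496, permutation). ELOVL5 was the member most tied to the GC slope of the library, with r = -0.598 over 23 livers sharing libraries with that slope, given here as a description.

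**Figure D4:**
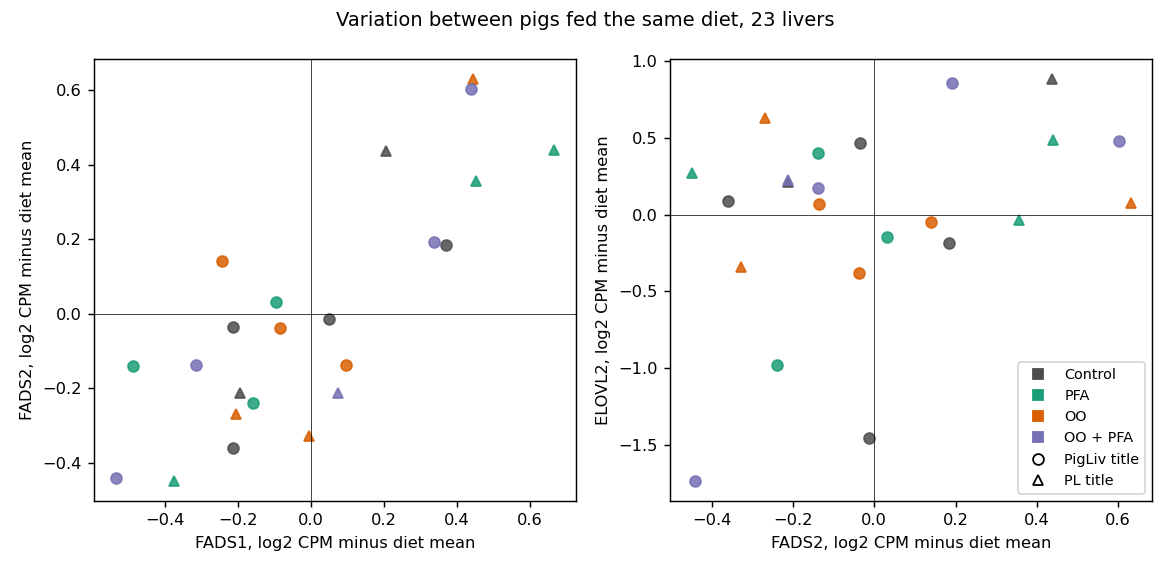
Log2 CPM of FADS2 against FADS1 (left) and of ELOVL2 against FADS2 (right) in 23 livers, each minus the mean of its diet, with diets as colours and the form of the library title as symbols. The left points follow a rising line (r = 0.813), whereas the right points are scattered (r = 0.361), with OP-79 lowest on the ELOVL2 axis.

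Profiles over the 23 livers were then compared with the diet differences left in. A shared response to diet and variation between pigs of one diet cannot be told apart in them. By the smallest root mean square difference, among 11731 genes with a symbol, FADS2 was the gene nearest to FADS1 (0.24 on the log2 scale), followed by ACADSB and YIPF1. Nearest to FADS2 were COX5A, FADS1 and BDH1. Nearest to ELOVL2 were SULT1B1 (0.58), RETSAT (0.62) and ABCD3 (0.62), all farther than the neighbours of the other members, as ELOVL2 also had the widest spread between livers (SD 1.16 against 0.28 to 0.39). FBXO8, GINM1 and CCT8 were nearest to ELOVL5, and CRYAB, TMEM50B and STIP1 to LPCAT3.

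In the ileum, the last part of the small intestine, the members were compared between 5 control and 5 PFA pigs. FADS1 was at 20.2, 24.5, 25.6, 27.0 and 34.2 CPM in the control and at 24.8, 31.1, 32.3, 35.4 and 42.2 CPM in the PFA pigs. FADS2 had a mean of 20.5 ± 4.54 CPM in the control and 21.3 ± 5.64 in the PFA group, and ELOVL5 of 38.2 ± 6.76 and 45.0 ± 9.25 (SD, n = 5 each). ELOVL2 was close to the limit of counting, with 12 to 66 read pairs in a library, at 0.596, 0.686, 1.42, 1.46 and 2.31 CPM in the control and 1.24, 1.59, 1.83, 2.84 and 2.85 CPM in the PFA pigs.

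LPCAT3 was at 65.8, 68.6, 72.1, 94.0 and 96.5 CPM in the control ileum and at 91.1, 95.0, 97.4, 101.8 and 113 CPM in the PFA ileum. The ranges overlapped at their ends, and the control median lay below all PFA values. On the log2 scale LPCAT3 differed by 0.33 (95% interval 0.04 to 0.61), with an unadjusted p of 0.027 and an adjusted p of 0.991 (edgeR). ELOVL2 differed by 0.68 (95% interval -0.17 to 1.54, adjusted p = 0.991, edgeR). The values of the other members were 0.33 for FADS1, 0.23 for ELOVL5 and 0.05 for FADS2. No member passed, and of all 14300 genes 0% passed with edgeR, with 401 at an unadjusted p under 0.05, while DESeq2 called 4 genes but no member.

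Ileum and liver of the same 5 control pigs were compared with all 10 libraries scaled together, in which 69.4% of 14375 genes passed. All 5 members were lower in the ileum. FADS1 was at 18.1 ± 3.33 CPM in ileum and 2038 ± 378 in liver (SD, n = 5), 113-fold lower, and FADS2 at 14.1 ± 3.22 and 858 ± 123, 60.8-fold lower. ELOVL2 was at 0.885 ± 0.465 and 42.8 ± 17.1 CPM, 48.6-fold lower, and ELOVL5 at 26.3 ± 4.43 and 222 ± 40.7, 8.44-fold lower. The adjusted p-values of these 4 were between 1.19e-10 and 2.7e-07 (edgeR), and no ileum overlapped a liver. The share of all genes without overlap between the tissues was not counted.

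LPCAT3 was the member closest in level between the tissues. It was at 54.6 ± 10.1 CPM in ileum and 111 ± 10.1 in liver, lower by a log2 value of -1.02 (95% interval -1.32 to -0.72, adjusted p = 2.89e-05, edgeR), but scaled by library totals alone it was at 0.07 (adjusted p = 0.634, edgeR), so the direction depends on the scaling. That scaling, chosen after the data were seen, moved the median of all genes from 0.03 to 1.13 and the share of higher among called genes from 51.5% to 84.7%, and the other 4 members stayed called as lower with it, with smaller log2 values of -5.73 for FADS1, -4.83 for FADS2, -4.52 for ELOVL2 and -1.98 for ELOVL5. Liver and ileum libraries also differ in the form of their titles, so tissue and library set cannot be told apart.

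**Figure D5:**
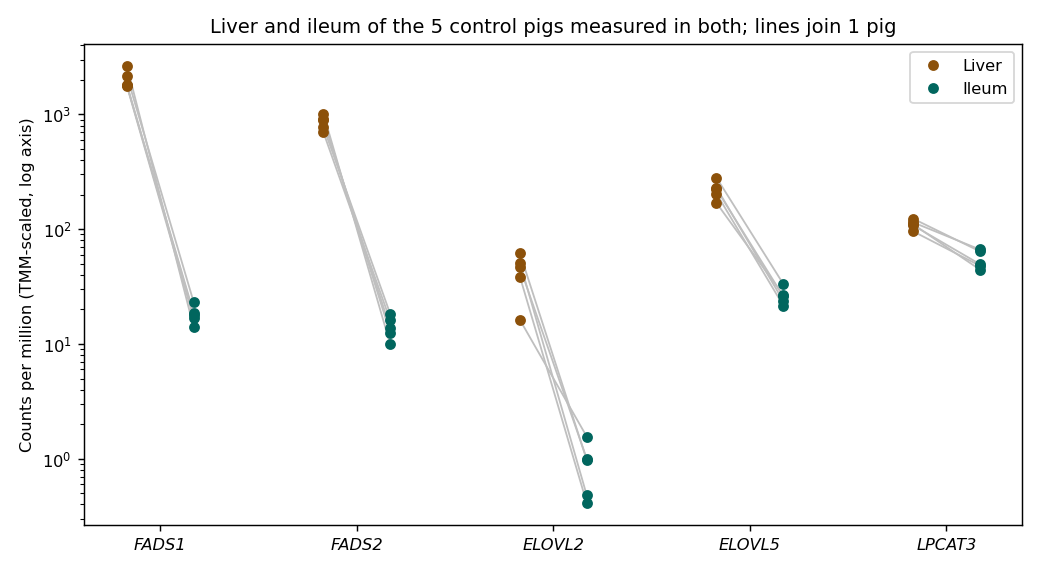
TMM-scaled CPM, on a log axis, of the 5 members in liver and ileum of the 5 control pigs, with lines joining the tissues of 1 pig. With this scaling all lines fall from liver to ileum, steeply for FADS1, FADS2 and ELOVL2 (113-fold, 60.8-fold and 48.6-fold between the groups) and least for LPCAT3 (2.03-fold), whose value is 0.07 on the log2 scale when libraries are scaled by their totals alone.

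Other enzymes of the same kind, named after their values were seen, were not all lower in ileum. Among 8 other elongases and desaturases tested, 4 were higher and 3 lower in ileum. ELOVL7 was higher by 3.19 and ELOVL4, which makes very long chains, by 2.66 on the log2 scale, while ELOVL6 fell by 3.59 and SCD by 4.44 (adjusted p at most 6.16e-06 for each, edgeR). All 10 SREBP-1c targets, 10 of 11 regulators and 14 of 15 PPARα targets were lower in ileum, and CYB5A, the cytochrome b5 of the desaturases, fell by 3.37 (adjusted p = 1.09e-08, edgeR). Of all 14375 genes, 4838 were called lower and 5140 higher in ileum. The lists were not counted with libraries scaled by their totals alone.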

How the data were processed

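RNA was measured in the liver of 24 and the ileum of 10 piglets. The authors made stranded, poly(A)-enriched libraries, aligned reads with STAR 2.6.1d to Sscrofa11.1 and deposited counts per Ensembl gene from HTSeq, without normalization, in per-sample files and whole-series tables that held equal values in 34 libraries. The annotation release and the strand setting of the counting are not given in the sources used here. Rows for pairs on no gene or several genes (7.54 to 27.9 and 2.24 to 4.81 per 100 counted on genes) and for pairs with several alignments (3.02 to 36.6) were left out of library sizes. Symbols came from a gene name table and positions from RefSeq. The labels also list DESeq2 1.22.2 among the authors' tools.

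The 5 members and the gene lists were chosen with earlier results of these data known. Counts were filtered with filterByExpr, scaled by TMM and tested with the quasi-likelihood test of edgeR 4.0.16 (limma 3.58.1, R 4.3.3), two-sided, with Benjamini-Hochberg adjustment over all genes kept (13831 in liver, 14300 in ileum, 14375 for the tissues) and a threshold of 0.05. Liver diets were fitted in 1 model of 23 libraries, so that all comparisons share its spread and several share their control group. The study's own threshold also asked for a fold change above 2, which was an alternative here. CPM are per TMM-scaled library, except for marker sums and markers given as below 0.1 CPM, which are per library total. Log2 CPM used a prior count of 2, and correlations 100000 permutations within diets. Exon GC content was known for 79.8% of liver genes tested, under 80%, so a check over all genes is void and GC-corrected fits (lowess, span 0.5) held the genes with a value, all 5 members included. Sex as a term came from Y-linked counts (13 of 23 livers male). Named genes were the members, all regulators, list genes called for OO or OO + PFA against control or across diets (at most 6 a list) and the 3 nearest profiles of each member. Outside this rule, ELOVL4, ELOVL6, ELOVL7, SCD and CYB5A were named after their values were seen, and cell type markers from their own lists. At this depth a member in liver rested on at least 396 read pairs per library.

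Ileum and liver were paired by the pig number in the library titles. The same-pig correlation of deviations from the tissue mean was -0.039 to 0.333 over 5 pigs. By this correlation the ileum of C-80 and C-110 matched its own liver best. That of C-71, C-92 and C-100 matched the liver of another pig best. The check thus did not settle the pairing, which the main tissue test did not use. Scripts were tested on simulated data. DESeq2 1.42.0, Python 3.11.15, NumPy 2.4.6, pandas 2.3.3, pysam 0.24.0 and matplotlib 3.10.9 were also used. Alternatives were DESeq2, RLE scaling, no filter, a fold change of at least 2, GC correction, terms for title form and sex, all 24 livers, 2 diets alone, a replicate block and leaving out each pig. Scaling by library totals alone was chosen after the data were seen. Protein sequences were not used here.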

Additional observations from a re-analysis of the deposited data

Results flagged for a closer look

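One library stood far from the others of its group in 30 groups of member levels looked at, where chance flags about 1 in 20 groups. ELOVL2 in the liver of OO-88 was at 221.9 CPM, the highest of the 6 OO livers, and the next was at 150.9 CPM. The gap was 0.636 of the group's range, against a critical value of 0.625. Without OO-88, the adjusted p of ELOVL2 across the 4 diets was 0.00179 (edgeR), and the gene remained called.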

How the results depend on the processing

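The count of members called kept within 1.5 times its value in every diet and tissue comparison under every alternative run, except when 1 library was left out for OO + PFA against PFA, where it ranged from 0 to 1. ELOVL2 stayed called for OO against control, with a range from 1.97 to 2.34 when 1 library was left out and from 2.09 to 2.21 under the other alternatives (adjusted p at most 0.0046, edgeR or DESeq2). With all 24 livers, OP-77 added 52.5 CPM of ELOVL2 to the OO + PFA group.

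The replicate block of the pig left all 5 members called as lower in ileum, and changed no call. The count of correlated pairs went from 1 to 2 with the GC correction. The r of FADS1 and FADS2 ranged from 0.787 to 0.848 when 1 liver was left out, which was run for this pair only.

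Directions turned only for values that passed no test, and for LPCAT3 between tissues with library totals (0.0738). With library totals also FADS2 (0.0283) and ELOVL5 (0.10) for OO + PFA against OO, ELOVL5 (0.12) and LPCAT3 (0.015) against PFA, and the interactions of FADS2 (0.13) and ELOVL5 (0.0086) turned. With the GC correction FADS1 (0.10) and FADS2 (0.0554) for PFA, ELOVL5 for OO + PFA against OO (0.13) and PFA (0.27) and its interaction (0.0401), and NR1H2 for OO (-0.10) turned. Without a filter FADS1 for PFA was at 0.0126, with title form the FADS2 interaction was at 0.0229, r of FADS1 and LPCAT3 at 0.047 and of ELOVL2 and ELOVL5 at 0.038. With 24 livers FADS1 (-0.0176) and ELOVL5 (-0.034) against control, FADS1 against PFA (-0.0063) and r of ELOVL2 and ELOVL5 (0.138) turned, and with 2 diets alone ELOVL5 against OO (0.0026). The causes were not tested.

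With 1 library left out, the values that turned ranged, for PFA against control, from -0.17 to 0.0777 (FADS1) and from -0.15 to 0.0432 (FADS2), and in ileum from -0.0483 to 0.18 (FADS2). For OO + PFA they ranged against control from -0.0723 to 0.16 (FADS1), against PFA from -0.0616 to 0.21 (FADS1), from -0.10 to 0.11 (ELOVL5) and from -0.28 to 0.0552 (LPCAT3), and against OO from -0.27 to 0.0616 (FADS2) and from -0.0864 to 0.11 (ELOVL5). The FADS2 interaction ranged from -0.22 to 0.12, and INSIG2 for OO from -0.15 to 0.13. Among related genes, AGPAT4, ACACA, AGPAT2, LPCAT1, ACAA1, DAGLA, RAB3IL1, FGF21, PLIN1, HADHB and ACSL1 lost a call in at least 1 of the other alternatives, HADHB for both oil diets and ACSL1 for OO + PFA with all 24 livers. With 1 library left out, FGF21 lost its call in 6 of 12 fits for OO and 5 of 11 for OO + PFA, ACACA in 6 and ACAA1 in 10 of 11 for OO + PFA, and ACSL1 without OP-79.

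Counts of all genes called moved more than those of the members. DESeq2 called 1079 genes for OO against control (375 with edgeR), 1370 for OO + PFA (702), 697 for OO + PFA against PFA (218) and 1776 across the diets (506). For OO against control 194 genes were called with the 2 diets fitted alone and 224 with all 24 livers, which gave 1690 and 1530 for OO + PFA against control and 963 and 1225 against PFA. The GC correction was fitted on 11040 genes and not 13831, so its counts are given with shares. They were 742 for OO against control (6.72%, main fit 2.71%) and 348 for OO + PFA against PFA (3.15%, main fit 1.58%). For OO + PFA against OO 13 genes were called (0.118%, main fit 0%), and 872 across the diets (7.9%, main fit 3.66%), where all 24 livers gave 1113. The share of higher among called genes moved from 50.7% to 40.3% for OO against control with RLE scaling, and from 78.9% to 92.6% for OO + PFA against PFA with library totals. With 1 library left out, the counts ranged from 167 to 1325 for OO against control, from 191 to 703 for OO + PFA against control, from 103 to 411 against PFA, from 0 to 7 against OO, from 0 to 5 for the interaction and from 297 to 1450 across the diets.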
